A study of Zea mays with 47 samples.

Results

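The 100 genes described here were selected because their mRNA level in maize leaves was higher at 32°C than at 25°C and about the same at 38°C as at 32°C. For every gene, the mean of log2(CPM + 1) was taken over the libraries of each heat level, where CPM are read counts brought to a common library size with TMM scaling (trimmed mean of M-values). Genes with a mean of at least 1 CPM and a difference of less than 0.3 in either direction between 32°C and 38°C were kept, and the 100 of them with the largest difference between 25°C and 32°C are the members. Of the 17905 genes counted, 14062 reached 1 CPM, 9487 kept both limits and 100 were taken. Both steps were therefore fixed by the choice of the members, and they are given below as a description without a test. RNA was sequenced from 8 inbred lines, the Dent lines S058, S067, S070 and P040 and the Flint lines L043, L012, L023 and L017, of which the study had preselected S058, S067, L043 and L012 as heat tolerant and S070, P040, L023 and L017 as heat susceptible. The study also measured a heat susceptibility index, the slope of combined seedling traits over the heat levels. By it only S070 and P040 were considered susceptible, and the other lines, L023 and L017 included, more tolerant than these. Seedlings of all lines started at 25°C in the light and 20°C in the dark, and in the mild and the strong heat treatment the temperature was raised after 6 days to 32°C and 27°C or to 38°C and 33°C. The 3 heat levels were run as separate chamber experiments, and heat level and experiment cannot be told apart. Pieces of the latest fully developed leaf of 5 plants were pooled per library, with 2 replications for each of the 24 combinations of line and heat level except for L017 at 32°C with 1, which gives 16, 15 and 16 libraries at 25°C, 32°C and 38°C. The replications are pools of different plants from the same chamber experiment. In the fits that compare lines, with 1 mean per combination of line and heat level, the p-values measure the spread between such pools. The fit of the steps averaged over lines held no term for line. Its p-values measure the spread over lines and pools together.

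Leaf mesophyll and bundle sheath cells of maize hold plastids whose small genome is read by nuclear-encoded proteins. Such proteins transcribe plastid genes, cut and splice the transcripts and protect their ends, and many of them are RNA helicases, splicing factors or pentatricopeptide repeat proteins. Growth at raised temperature is best known for the induction of heat shock proteins, which refold damaged proteins, and it further changes photosynthesis, the circadian clock and the defence status of leaves. Of the 100 members, 74 matched a RefSeq gene and 11 of these carried a name, and 16 members stand in the study's list of overall heat responsive genes, which was selected on the same libraries. Most members thus had no annotation in the sources used here and are given by their identifier only. None of the members was in any of 22 lists of gene families and pathways matched by symbol, among them heat shock proteins and heat stress transcription factors, where many genes have no symbol. With 11 named members, this does not show that such families are absent. A cytochrome P450, a trypsin inhibitor and a pseudo response regulator are members and are described below. Of 15 heat shock proteins and co-chaperones, 7 were called higher and 2 lower at 32°C than at 25°C and 12 higher at 38°C than at 32°C, and of 17 light harvesting and photosystem genes 14 were called higher at 32°C and 13 lower at 38°C.

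Totals per library ranged from 7747441 to 20642205 counts at 25°C, from 8059394 to 17529195 at 32°C and from 3687700 to 13912372 at 38°C. The 11 genes above 1% of all counts held a median of 83.2% of the counts of a library at 25°C, 72.7% at 32°C and 57.9% at 38°C, so that the position of all other genes depended on the scaling. With library totals as the only scaling, the median gene above 1 CPM was 0.48 and 0.82 log2 units higher after the first and the second step, and the median member was 0.85 units higher at 38°C than at 32°C where TMM scaling gave -0.06. Flat therefore means flat relative to the bulk of the other genes. All 7 leaf markers were detected in every library, from 4.17 CPM of rbcS upwards, and 2 of them were called lower at 32°C than at 25°C and 1 lower at 38°C than at 32°C. Medians at 25°C, 32°C and 38°C were 1783, 1825 and 1409 CPM for phosphoenolpyruvate carboxylase (pep1), 2212, 1443 and 1296 CPM for pyruvate phosphate dikinase (ppdk1) and 88.2, 61.7 and 32.4 CPM for the sucrose transporter sut1, a phloem marker. In such bulk tissue, fewer cells of a type and less RNA per cell cannot be told apart. The library labelled P040 at 25°C, replicate 1, resembled L017 (r = 0.296 across genes) slightly more than P040 (r = 0.259). The libraries labelled S070 and P040 at 32°C, replicate 1, resembled each other's line (r = 0.616 with P040 and r = 0.515 with S070, against -0.0144 and -0.0943 with their own). S070 and P040 are both Dent and susceptible, so that an exchange of these libraries at 32°C would keep the groups of lines. L017 is susceptible but Flint, so that this does not hold between Flint and Dent for the P040 library at 25°C. Counts of Flint against Dent lines at each heat level are given with and without these 3 libraries. So are counts of steps that differed between lines or between Flint and Dent lines, and steps of S070 and P040 named for single genes. Counts averaged over heat levels, and that of the first step in susceptible against tolerant lines, are given with ranges over fits without single libraries or lines instead.

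The first step of the members, the difference between 32°C and 25°C, ranged from 0.96 to 2.27 log2 units with a median of 1.11, and the second step from -0.29 to 0.30 with a median of -0.06. Only 5 members were beyond 2 units in the first step, and 82 were beyond 1 unit. Mean levels lay between 1.09 and 44.4 CPM with a median of 6.03 CPM, and 40 members had a mean under 5 CPM. In the fit over heat levels, 98 of the 100 members were called higher at 32°C than at 25°C, where 17.7% of all genes were called higher, and none was called between 32°C and 38°C, where 26.3% of all genes were called. The last count stands against 2 members at an unadjusted p under 0.05 in edgeR and 1 call in DESeq2, and both counts follow from the choice of the members. The first step was positive in all 8 lines for 87 members, in 7 lines for 9 members and in fewer lines for 4 members.
Complete separation of the heat levels was rare, since single libraries of neighbouring heat levels overlapped in most members. In 2 members, GRMZM2G455587 and GRMZM2G124059, every library at 32°C and 38°C was above every library at 25°C, which held for 7 of the 14062 genes above 1 CPM (0.0498%). Levels of GRMZM2G455587, an uncharacterized gene, were 0.439, 1.90 and 2.86 CPM in the lowest, median and highest library at 25°C, 3.8, 6.23 and 10.9 CPM at 32°C and 4.12, 7.33 and 10.9 CPM at 38°C. Its first step was 1.53 ± 0.39 (SD, n = 8 lines). For GRMZM2G124059 the lowest, median and highest library had 0.375, 0.875 and 1.71 CPM at 25°C, 2.07, 3.43 and 5.43 CPM at 32°C and 2.63, 3.91 and 5.53 CPM at 38°C.

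**Figure D1:**
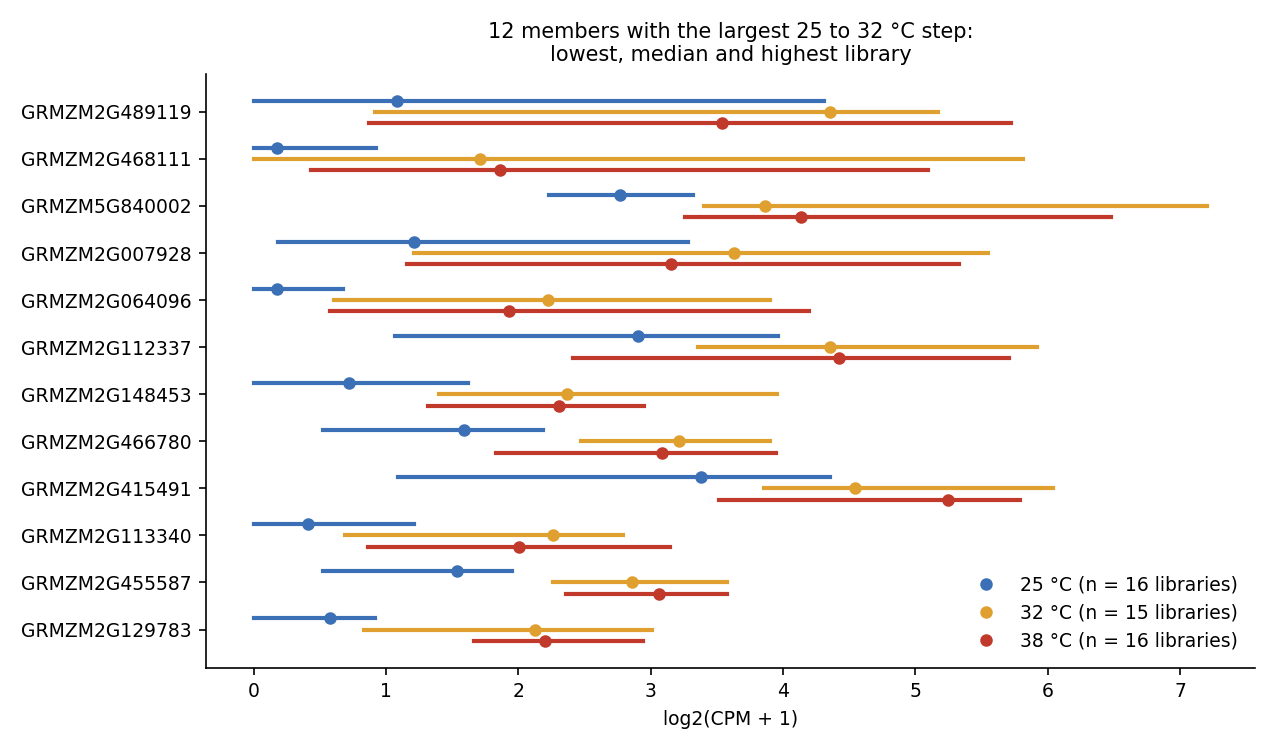
Levels of the 12 members with the largest first step, as log2(CPM + 1) on the x axis. Lines run from the lowest to the highest library of a heat level and points are medians over 16, 15 and 16 libraries at 25°C, 32°C and 38°C. For GRMZM2G455587 the 25°C line ends below the start of the other lines, whereas in each of the other 11 genes it reaches into the line of at least 1 other heat level.

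Among the members with a known function, 4 belong to the expression of organellar genes. GRMZM2G415491 is RH3A, a DEAD-box RNA helicase of the chloroplast that takes part in the splicing of plastid introns and in the assembly of plastid ribosomes. Its level was 1.13, 9.42 and 19.4 CPM in the lowest, median and highest library at 25°C, 13.5, 22.3 and 64.7 CPM at 32°C and 10.4, 36.9 and 54.4 CPM at 38°C. The first step was 1.63 ± 0.77 (SD, n = 8 lines), and 24 of the 31 libraries at 32°C and 38°C were above every library at 25°C. GRMZM2G177169 is PPR10, a pentatricopeptide repeat protein that binds and protects the ends of certain plastid transcripts. PPR10 had 0.750, 1.87 and 3.75 CPM at 25°C, 2.5, 5.42 and 18.4 CPM at 32°C and 3.22, 5.73 and 10.2 CPM at 38°C, and its first step was 1.25 ± 0.52 (SD, n = 8 lines). The heat levels overlapped in few libraries, since 26 of 31 libraries were above the highest library at 25°C. GRMZM2G403797 is WTF1, a splicing factor of plastid group II introns, and GRMZM2G115564 is rpoT2, an RNA polymerase of the phage type that works in organelles. Medians of WTF1 were 3.70, 10.4 and 9.38 CPM at 25°C, 32°C and 38°C, and those of rpoT2 were 3.24, 9.75 and 8.09 CPM. Both were higher at 32°C than at 25°C in 8 of 8 lines, with first steps of 1.14 ± 0.38 and 1.26 ± 0.35 (SD, n = 8 lines).
These 4 genes are part of 28 genes of organellar gene expression that were listed after the members had been seen, so that the list supports nothing. Without the 4 members, and with loci of the same RefSeq gene counted once, 20 genes remain, of which 11 were called higher and 0 lower at 32°C than at 25°C in edgeR (17.7% and 14.1% of all genes). Their median first step was 0.46, and that of all 17905 genes was 0.01. One gene of the list, rnc1 (GRMZM2G035820), whose product acts in plastid intron splicing, missed the set by 3 ranks, with a first step of 0.96 and a second step of 0.28.

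Some annotated members belong to families known from defence or stress. GRMZM2G007928, a Bowman-Birk type trypsin inhibitor, a class of plant proteins that block serine proteases, had 0.135, 1.32 and 8.74 CPM in the lowest, median and highest library at 25°C, 1.31, 11.3 and 45.8 CPM at 32°C and 1.23, 7.90 and 39.3 CPM at 38°C. Lines differed widely, with a first step of -0.18 in S070 and 3.50 in L017, and S070 was the line in which its mean was not higher at 32°C, although without the S070 library that resembled P040 its step there was 0.75. GRMZM2G064096, a germin-like protein, which belongs to a family of secreted cell wall proteins, had 0, 0.126 and 0.596 CPM at 25°C, 0.521, 3.67 and 13.9 CPM at 32°C and 0.494, 2.80 and 17.3 CPM at 38°C. In 5 of the 16 libraries at 25°C no read was counted for it, and 29 of 31 libraries at the higher heat levels were above all libraries at 25°C. GRMZM2G048672 is named mif for its similarity to macrophage migration inhibitory factor, a cytokine in animals. Its medians were 0.343, 2.78 and 2.38 CPM at 25°C, 32°C and 38°C, and its first step was 1.39 ± 0.59 (SD, n = 8 lines). GRMZM2G384884, a cytochrome P450, belongs to a large family of oxidising enzymes. It had medians of 2.91, 14.7 and 18.3 CPM, but a range from 0.221 to 45.3 CPM at 25°C alone, and only 5 of 31 libraries at the higher heat levels were above that range.

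Among the annotated metabolic genes, GRMZM5G840002 encodes the small subunit 2 of 3-isopropylmalate dehydratase, an enzyme of leucine synthesis. It had 3.70, 5.81 and 9 CPM in the lowest, median and highest library at 25°C, 9.55, 13.5 and 146 CPM at 32°C and 8.59, 16.6 and 88.0 CPM at 38°C. The distance between median and highest library was wide at 32°C, and the libraries behind it are described further below. GRMZM2G113033, a small subunit of Rubisco (rbcS), the enzyme that fixes CO2 in the bundle sheath, had the highest mean of the members with 44.4 CPM. Its medians were 18.2, 52.0 and 37.2 CPM at 25°C, 32°C and 38°C, within ranges of 4.17 to 132, 6.16 to 146 and 12.4 to 87.2 CPM. The heat levels overlapped almost fully, the difference between 25°C and 32°C was not called (adjusted p = 0.070 in edgeR), and reads could be shared with the rbcS copy GRMZM2G098520, whose medians were 38.9, 70.3 and 33.1 CPM. GRMZM2G074017, an ATPase inhibitor, a small protein of mitochondria, had medians of 0.783, 1.5 and 2.17 CPM and a range up to 2.52, 23.1 and 16.6 CPM at 25°C, 32°C and 38°C.

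Among members with a role in regulation, GRMZM2G148453 stands in the pseudo response regulator family, to which plant clock genes belong. It had 0, 0.647 and 2.08 CPM in the lowest, median and highest library at 25°C, 1.64, 4.16 and 14.5 CPM at 32°C and 1.49, 3.95 and 6.70 CPM at 38°C. The first step was 1.69 ± 0.58 (SD, n = 8 lines), and 25 of 31 libraries were above every library at 25°C. Of the clock genes with a symbol, 5 of 6 were called higher at 32°C than at 25°C and 3 lower at 38°C than at 32°C. GRMZM2G474769 and GRMZM2G014902, which were taken as further clock markers and have no symbol in RefSeq, went the opposite way, with medians of 102, 11.6 and 25.1 CPM and of 149, 18.0 and 84.3 CPM. Both were called lower at 32°C than at 25°C (adjusted p = 0.00022 and 1.2e-08 in edgeR), and GRMZM2G014902 was called higher at 38°C than at 32°C (adjusted p = 7.2e-06). GIGANTEA (GRMZM2G107101), a clock gene that is no member, had medians of 80.3, 114 and 55.3 CPM. The hour of sampling is not given per library, and its part in the difference between chamber experiments was not tested. GRMZM2G075562 is COL5, a gene of the CONSTANS-like family of transcriptional regulators, with medians of 1.45, 3.86 and 3.17 CPM and a first step of 1.11 ± 0.38 (SD, n = 8 lines). GRMZM2G140051 (nfa101) and GRMZM2G157019 (nfa103) belong to the nucleosome and chromatin assembly factors, which load histones onto DNA. Medians were 3.93, 8.70 and 9.84 CPM for nfa101 and 1.96, 5.26 and 5.20 CPM for nfa103 at 25°C, 32°C and 38°C. Both had their smallest first step in S058 (0.12 and -0.08) and their largest in P040 (2.10 and 1.80, and 1.94 and 1.92 without the P040 libraries that resembled another line), and S058 was the line in which nfa103 was not higher at 32°C. The members further hold a peptidyl-prolyl isomerase, GRMZM2G076544, of a class of enzymes that help proteins fold, and GRMZM2G010743 of the Tim17 family, a family of membrane proteins with roles in the import into mitochondria. Their medians were 2.40, 6.85 and 6.07 CPM and 0.591, 2.05 and 2.07 CPM.

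The remaining genes named by size have no annotated function. GRMZM2G489119 had the largest first step, 2.27 ± 0.73 (SD, n = 8 lines), with 0, 1.12 and 18.8 CPM in the lowest, median and highest library at 25°C, 0.886, 19.5 and 34.9 CPM at 32°C and 0.830, 10.6 and 51.8 CPM at 38°C. The heat levels overlapped widely because the lines differed in its level at each of them. With all libraries, GRMZM2G112337 had the most even first step over the lines among the 12 genes with the largest first step, with 1.38 in S058 and 2.18 in L017. Without the libraries that resembled another line, its first step was 1.04 in P040 and 1.26 in S070. The medians of GRMZM2G112337 were 6.48, 19.5 and 20.4 CPM. GRMZM2G466780 had medians of 2, 8.27 and 7.48 CPM, GRMZM2G113340 of 0.329, 3.79 and 3.01 CPM and GRMZM2G129783 of 0.490, 3.36 and 3.59 CPM. At least 26 of the 31 libraries at 32°C and 38°C were above all libraries at 25°C in each of these 3 genes. GRMZM2G389233 and GRMZM2G169384 were the unannotated members with the highest levels, with medians of 19.3, 41.8 and 48.7 CPM and of 13.3, 35.0 and 30.2 CPM. GRMZM2G169384 was the steadier of both, with first steps from 0.52 in S058 to 1.47 in L012 and a second step of -0.01 ± 0.16 (SD, n = 8 lines).
Some members count shared reads. GRMZM2G081583 and GRMZM2G027385 match the same RefSeq gene and their counts differed by a median of 2.0%, GRMZM6G704070 and GRMZM2G175593 match another and differed by a median of 9.34%, and GRMZM5G851009 and GRMZM5G857681 had equal counts in 47 of 47 libraries, while GRMZM5G820575 equalled them in 33 of 47. Counting each of these groups once, 96 members remain, and the values of single genes within a group are uncertain.

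**Figure D2:**
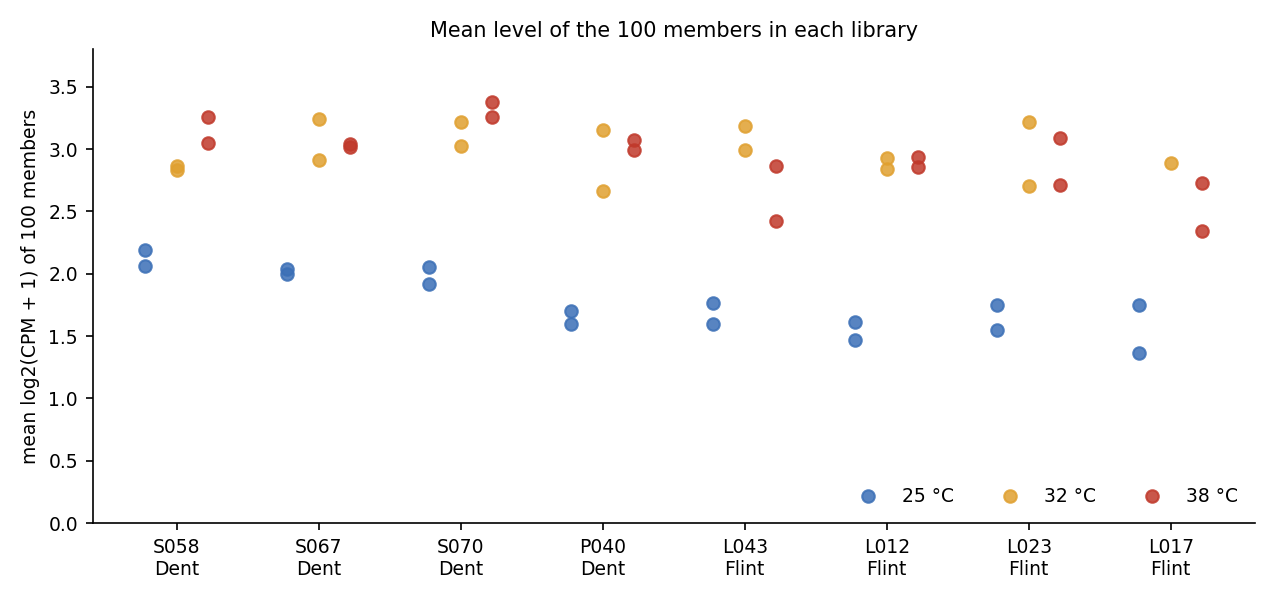
Mean log2(CPM + 1) of the 100 members in each of the 47 libraries (y axis), by line (x axis) and heat level (colour). Means lie between 1.37 and 2.19 at 25°C, between 2.66 and 3.24 at 32°C and between 2.34 and 3.38 at 38°C, and the lowest library at 38°C belongs to L017.

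The question whether single lines followed the course of the average was addressed by the steps within each line. The median first step of the members was 0.83 in S058, 1.05 in S067, 0.93 in S070 and 1.20 in P040, and it was 1.26 in L043, 1.36 in L012, 1.33 in L023 and 1.39 in L017. All 4 Flint lines were thus above all 4 Dent lines. The order among the 4 Flint lines spans less than the distance between the quartiles of any of them, for example 0.86 to 1.89 in L017. The median second step was 0.22 in S058, -0.13 in S067, 0.30 in S070, 0.29 in P040, -0.37 in L043, -0.05 in L012, -0.17 in L023 and -0.58 in L017. Within a line, 17 (L017) to 49 (L012) of the 100 members stayed within the limit of 0.3. A step within a line rests on 1 or 2 libraries per heat level, and the share of all genes within this limit was not determined. These counts thus cannot show how many members changed within a line. Without the 3 libraries that resembled another line, the medians of P040 were 0.85 and 0.56 and those of S070 0.94 and 0.33.
As each line took part in the choice of the members, the rule was also applied to the other 7 lines and the steps were read in the line left out. Of the 100 genes found in this way, 71 to 84 were members. Their median first step in the line left out was 0.54 in S058, 0.95 in S067, 0.74 in S070, 0.98 in P040, 1.22 in L043, 1.33 in L012, 1.27 in L023 and 1.37 in L017. Between 80 (S058) and 99 (L043 and L023) of the 100 genes were higher at 32°C than at 25°C in the line left out, whereas 47.7% to 51.4% of the genes above 1 CPM were higher in these lines. The libraries of the line left out come from the same chamber experiments as those of the other lines.

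**Figure D3:**
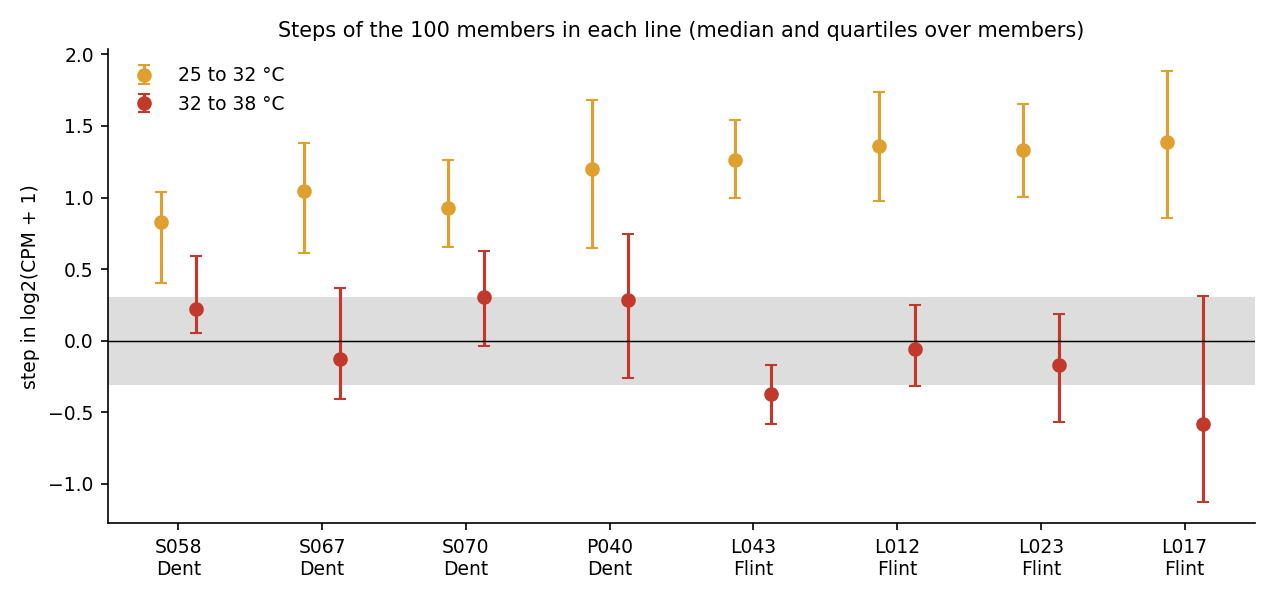
First step (25 to 32°C) and second step (32 to 38°C) of the 100 members within each line, in log2(CPM + 1) on the y axis. Points are medians and bars run from the lower to the upper quartile over members, and the grey band marks the limit of 0.3. First steps are positive in every line with medians of 0.83 to 1.39, and second steps range from a median of -0.58 in L017 to 0.30 in S070.

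Differences between lines did not enter the rule directly and were tested with edgeR over all 17905 genes. A member could, however, reach 1 CPM or a large average first step through the lines in which it was high. For such members the contrasts between lines are a description. Mean first steps in Flint and Dent lines were 0.42 and 1.62 for GRMZM2G384884, 0.33 and 1.62 for GRMZM2G074017 and 0.53 and 1.35 for GRMZM2G170742, although only 18 members had the larger one in the Dent lines. Averaged over the heat levels, 50 members differed between Flint and Dent lines (35.7% of all genes did), of which 45 were lower in the Flint lines (19.8% of all genes) and 5 were higher (15.9% of all genes). The median difference was -0.34 log2 units over the members and -0.03 over all genes. The largest difference was that of the cytochrome P450 GRMZM2G384884 with -3.68 ± 0.19 (SE; adjusted p = 1.9e-15). It had 0.221, 0.501 and 13.0 CPM in the lowest, median and highest Flint library at 25°C and 1.35, 12.5 and 45.3 CPM in the Dent libraries. At 32°C it had 0.374, 2.08 and 15 CPM in the Flint and 11.9, 33.1 and 75.2 CPM in the Dent lines, and at 38°C 0.800, 1.55 and 19.6 CPM in the Flint and 17.6, 31.4 and 56.4 CPM in the Dent lines. The overlap came from L043, whose 6 libraries of 3.84 to 19.6 CPM were the highest of the Flint lines. Over the line means, 4 against 4, an exact two-sided permutation test gave p = 0.057 for this gene, where the smallest p that 8 lines allow is 0.029.
GRMZM2G074017, the ATPase inhibitor, was lower in the Flint lines by -2.19 ± 0.26 log2 units (SE; adjusted p = 6.3e-08) and the unannotated GRMZM2G170742 by -1.76 ± 0.17 (adjusted p = 1.6e-09). GRMZM2G074017 had medians of 0.440 and 1.17 CPM in Flint and Dent lines at 25°C, of 0.822 and 6.60 CPM at 32°C and of 1.16 and 5.33 CPM at 38°C. At 32°C the pools did not overlap, with at most 1.28 CPM in the Flint and at least 1.5 CPM in the Dent lines. In the opposite direction, GRMZM2G011367 was higher in the Flint lines by 2.90 ± 0.56 (adjusted p = 9.2e-05), GRMZM2G489119 by 2.78 ± 0.29 (adjusted p = 2.3e-09) and GRMZM2G024738 by 1.51 ± 0.11 (adjusted p = 8.1e-12). For GRMZM2G489119, the Flint libraries at 32°C had between 22.2 and 34.9 CPM and the Dent libraries between 0.886 and 19.5 CPM, again without overlap. GRMZM2G011367 was at 0 counts in 8 of 16 libraries at 25°C, and without 1 replicate at 25°C of L017, L023 or L012 its call was lost (adjusted p = 1 in each), with differences of 2.58, 2.49 and 2.41. These last 3 genes and GRMZM2G074017 and GRMZM2G170742 had no overlap between the line means of both pools (exact two-sided permutation test over 4 against 4 lines, p = 0.029 each, the smallest possible). As they were picked for their large differences between the pools, this p describes them and is no further support. In the Dent lines, GRMZM2G011367 had medians of 0, 0.383 and 0.755 CPM at 25°C, 32°C and 38°C, all under 1 CPM. Its mean first steps were 1.87 in the Flint and 0.41 in the Dent lines. This gene thus met the limits of the set largely through the Flint lines, and its difference between the pools is a description.

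Flint and Dent lines differed in the members mainly at 25°C and at 38°C, in tests that were added after the data had been seen. At 25°C, 24 members were called lower and 2 higher in the Flint lines (8.43% and 6.56% of all genes), and the median difference was -0.58 log2 units. At 32°C, 12 were called lower and 8 higher (10.7% and 7.8% of all genes, 18.5% in either direction) with a median difference of -0.05, but the direction was not stable. There, 16 were higher and 14 lower without the 3 libraries that resembled another line, 18 higher and 8 lower without the P040 library among them, and more were higher than lower in 12 of 61 alternatives, with equal numbers in 6. At 38°C, 47 were called lower and 10 higher (12.3% and 12.2% of all genes) with a median difference of -0.48 (in either direction 15% of all genes were called at 25°C and 24.5% at 38°C). The count at 25°C was 15 without line S058, and that at 32°C was between 9 (without line P040) and 13 in 7 of 55 fits without 1 library or line. Without the 3 libraries that resembled another line the medians were -0.56, 0.11 and -0.48, and 30 were lower and 2 higher at 25°C and 49 lower and 10 higher at 38°C. The steps themselves followed from these levels: the mean of the first step over lines was larger in the Flint pool for 82 of the 100 members, and the mean of the second step was larger in the Dent pool for 73. Shares of all genes with these directions were not determined. In edgeR, the median difference of the first step, Flint over Dent, was 0.48 over the members and -0.03 over all genes. For the second step these medians were -0.64 and 0.09.
The tests of the steps called few genes. The first step of 1 member was called larger in the Flint lines (0.0223% of all genes) and that of none smaller (0.0614%, in sum 0.0838%). At an unadjusted p under 0.05 there were 24 and 2 members in the respective direction, and the share of all genes at that threshold was not determined. The one call was RH3A, with a difference of 1.40 ± 0.29 (SE; adjusted p = 0.044 in edgeR), and it was lost in 41 of 61 alternative analyses, with adjusted p values from 0.0068 to 0.33. The libraries of L012 at 25°C had 1.13 and 1.53 CPM of RH3A and those of L043 2.72 and 3.24 CPM, whereas the other 12 libraries at 25°C had between 7.61 and 19.4 CPM. The Dent libraries had 8.02 to 19.4 CPM, so that L012 and L043 were far below them at 25°C, and L023 and L017, apart from 1 library at 7.61 CPM, were not. At 38°C the Flint libraries of RH3A had 10.4, 23.6 and 48.1 CPM and the Dent libraries 35.9, 43.2 and 54.4 CPM as lowest, median and highest value.
Second steps of 12 members differed between the pools, 8 with a smaller step in the Flint lines (0.793% of all genes) and 4 with a larger one (0.748%, in sum 1.54%), or 11 members with shared reads counted once. Without the 3 libraries that resembled another line, 31 were smaller and 5 larger, and without the library labelled P040 at 32°C, replicate 1, alone, 33 were called in all. Leaving out the only library of L017 at 32°C, and with it the line from this comparison, left 0 calls, and without line S067 there were 34. Without line S058 or S070, 0 smaller and 4 or 3 larger steps were called. The smaller steps included RH3A (-1.25 ± 0.27, adjusted p = 0.017), GRMZM2G389233 (-1.12 ± 0.24, adjusted p = 0.017) and GRMZM2G466780 (-1.06 ± 0.28, adjusted p = 0.047), all SE in log2 units. From 32°C to 38°C, the median of GRMZM2G389233 went from 41.8 to 33.8 CPM in the Flint and from 40.8 to 68.9 CPM in the Dent lines, and no Flint library at 38°C was above the lowest Dent library of 49.1 CPM. The 4 larger steps belonged to GRMZM2G468111, GRMZM2G175610 and the pair GRMZM6G704070 and GRMZM2G175593, which are described below by line. Both tests of steps share the libraries at 32°C. The limit on the average second step also favours genes whose pools moved in opposite directions. RH3A, for example, had mean second steps of -0.43 in the Flint and 0.82 in the Dent lines. The shares of all genes beside these counts do not correct for this.

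**Figure D4:**
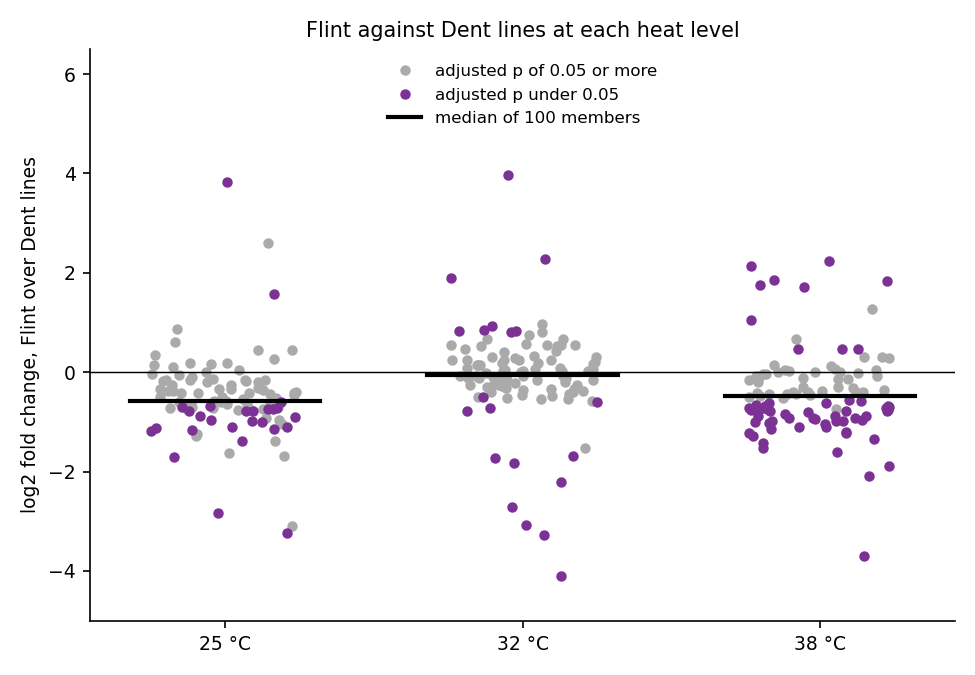
Log2 fold change of Flint over Dent lines (y axis) of each of the 100 members at 25°C, 32°C and 38°C. Purple points passed an adjusted p of 0.05 in edgeR and black lines are medians, which lie at -0.58, -0.05 and -0.48.

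Susceptible and tolerant lines differed in 13 members when averaged over heat levels, fewer than the share of all genes (20.4%), with 10 lower in the susceptible lines (10.4% of all genes) and 3 higher (9.99% of all genes). The 3 higher ones were mif with 0.84 ± 0.23 log2 units (SE; adjusted p = 0.0080), RH3A with 0.65 ± 0.11 (adjusted p = 8.3e-05) and PPR10 with 0.37 ± 0.11 (adjusted p = 0.016). Without line L012, however, all 3 calls were lost (0.37, 0.27 and 0.32 log2 units, with adjusted p of 0.29, 0.14 and 0.068), the call of mif also without L043 (0.72, adjusted p = 0.055) and that of PPR10 also without L023 (0.18, adjusted p = 0.33). The largest difference in the opposite direction was again the cytochrome P450 GRMZM2G384884 with -1.64 ± 0.22 (adjusted p = 1.4e-06). The study named it as a heat tolerance gene on these samples, but by another measure. There, the change of expression with heat rose with the heat susceptibility index of the lines, whereas the difference given here is one of mean level. GRMZM2G027385 and GRMZM2G081583, which share reads, were lower in the susceptible lines by -0.81 ± 0.14 and -0.77 ± 0.14 (adjusted p = 9.3e-05 and 0.00016). Over the line means, none of these 6 genes passed an exact two-sided permutation test with 4 against 4 lines (p between 0.057 and 0.37), in which the spread between lines of a group counts. No member differed between susceptible and tolerant lines in the first step in edgeR or in DESeq2 (0% of all genes in edgeR). An unadjusted p under 0.05 was found for 9 members, and the share of all genes at that threshold was not determined. The members GRMZM2G074017, GRMZM2G076544, GRMZM2G157019 and GRMZM2G010743 also stand in the study's list of heat tolerance genes. Like GRMZM2G384884, they are listed there with a positive slope of the expression change on the index.

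The 8 lines did not differ detectably in the first step of any member in edgeR (0.0894% of all genes were called), although 30 members had an unadjusted p under 0.05 and DESeq2 called 9. In the second step, by contrast, 13 members differed between lines in edgeR (2.79% of all genes), with 25 calls in DESeq2. Shares of all genes at the unadjusted threshold and in DESeq2 were not determined, so that the counts of 30, 9 and 25 have no such value beside them. Without the 3 libraries that resembled another line the count was 38, and without the library labelled P040 at 32°C, replicate 1, alone it was 36. It was 27 without the library L043 at 38°C, replicate 1, and 8 each without L023 at 32°C, replicate 2, P040 at 38°C, replicate 1 or 2, and S067 at 38°C, replicate 1. Counting shared reads once, 11 of the 13 remain. In each of the 13 members the second step was positive in some lines and negative in others, which the limit on the average second step favours in genes whose lines differ.
In 7 of the 13, the 3 largest first steps belonged to the same lines, S070, P040 and L043, which was the case for 14 members and for 509 of the 14062 genes above 1 CPM (3.62%). These are GRMZM2G468111, GRMZM5G840002, GRMZM2G143457, GRMZM2G175610, GRMZM2G334336 and the pair GRMZM6G704070 and GRMZM2G175593. In GRMZM2G468111, GRMZM2G175610, GRMZM2G334336 and the pair, the large average first step came largely from S070, P040 and L043. Their differences between lines, with the p-values, are therefore a description. For GRMZM2G468111, a putative uncharacterized protein with a second step that differed between lines at an adjusted p of 0.0019, no library at 25°C exceeded 0.894 CPM. At 32°C it had 15.8 and 55.3 CPM in S070, 20.2 and 17.9 CPM in P040 and 16.9 and 27.8 CPM in L043. In the other lines it had 8.35 and 0.261 CPM in L012, 2.27 and 1.5 CPM in S067, 0.295 and 2.26 CPM in S058, 0 and 0.0914 CPM in L023 and 0.141 CPM in the library of L017. At 38°C the order was different, with 25.8 and 9.33 CPM in L023, 14.8 and 2.42 CPM in L017, 15.2 and 4.02 CPM in S067 and 0.440 and 33.2 CPM in L012. S070 had 2.84 and 8.01 CPM, L043 0.925 and 0.511 CPM, P040 0.346 and 0.659 CPM and S058 0.600 and 0.533 CPM at 38°C. S070, P040 and L043 were thus the highest lines at 32°C and lower at 38°C, L023, L017 and S067 were higher at 38°C, and the replications of L012 differed as much as lines did. The S070 and P040 libraries that resembled each other's line were both high at 32°C.
The dehydratase subunit GRMZM5G840002 (adjusted p = 0.034) showed the same lines on top. At 32°C it had 93.3 and 146 CPM in S070, 43.9 and 80.2 CPM in P040, 85.6 and 100.8 CPM in L043 and 42.4 CPM in 1 library of L012, against 9.55 to 13.5 CPM in the other 8 libraries. At 38°C the single libraries above 40 CPM belonged to L012 (88.0 CPM), S070 (63.2 CPM), S067 (56.3 CPM), L023 (55.0 CPM) and L017 (42.2 CPM), each with a second replication of 9.79 to 31.6 CPM. At 38°C, high values thus occurred in 1 of both pools of plants of a line. GRMZM2G143457 (adjusted p = 0.00087) is the least abundant member with a mean of 1.09 CPM, and it was at 0 counts in 11 of 16 libraries at 25°C. Its highest values were 8.45 and 10.8 CPM in S070 and 4.62 and 6.21 CPM in P040 at 32°C. It thus reached 1 CPM largely through these lines, and its difference between lines is a description. Its second step ranged from -2.37 in P040 (-2.55 without the library that resembled S070) to 1.46 in L017.
GRMZM2G081583 and its read-sharing partner GRMZM2G027385 followed other lines (adjusted p = 0.0038 each). From 32°C to 38°C, GRMZM2G081583 went from 40.3 CPM to 7.79 and 6.91 CPM in L017 and from 38.8 and 27.9 CPM to 9.58 and 10.2 CPM in S067. In L012 it went from 15.6 and 11.2 CPM to 58.1 and 26.6 CPM and in S058 from 20.9 and 16.9 CPM to 51.9 and 31 CPM. L017 and S067 were thus at 38°C near their levels at 25°C (5.96 to 15.5 CPM), and L012 and S058 were higher at 38°C than at 32°C, with no overlap between the libraries of both heat levels in any of these 4 lines. The other called members were PPR10 (adjusted p = 0.029), whose second step ranged from -0.95 in L023 to 1.06 in P040 (1.44 without the P040 library at 32°C that resembled S070), the germin-like GRMZM2G064096 (adjusted p = 0.035), from -2.09 in S067 to 1.96 in P040 (1.44 without it), GRMZM2G113340 (adjusted p = 0.042), from -1.41 in L017 to 1.22 in S070 (1.17 without the S070 library that resembled P040, and 1.43 then in P040), and GRMZM2G170870 (adjusted p = 0.034), from -1.59 in L017 to 0.97 in P040 (1.51 without it).

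**Figure D5:**
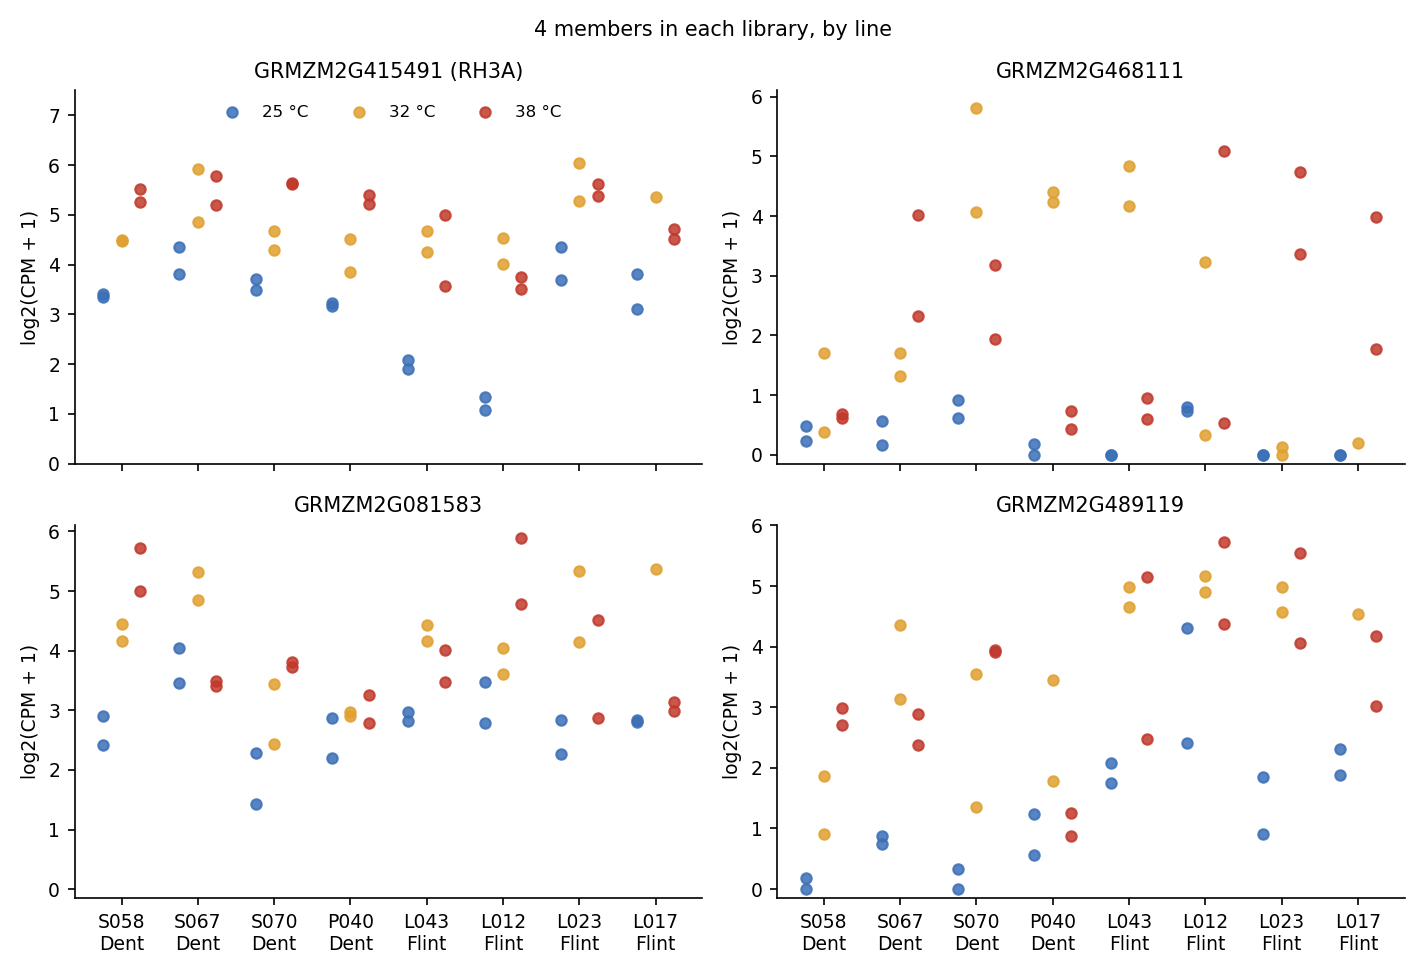
Levels of 4 members, as log2(CPM + 1) on the y axis, in each library by line and heat level. RH3A is lowest in L012 and L043 at 25°C, GRMZM2G468111 is high at 32°C in S070, P040 and L043 and at 38°C in other lines, GRMZM2G081583 is lower at 38°C than at 32°C in L017 and S067 but higher in L012 and S058, and GRMZM2G489119 is higher in the Flint than in the Dent lines.

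The borders of the set were not sharp. The members ranked 98 to 100, GRMZM5G857681, GRMZM2G077420 and GRMZM2G060156, had first steps of 0.97, 0.97 and 0.96, and the next genes, GRMZM2G450163, GRMZM2G025031 and rnc1, had 0.96 each. Closest to the limit on the second step were the members GRMZM2G001918 (0.299) and GRMZM2G150791 (-0.293) inside and GRMZM2G020081 (-0.302) and GRMZM2G380195 (-0.302) outside. The members closest to 1 CPM were GRMZM2G143457 with 1.09 CPM and GRMZM2G077420 with 1.19 CPM. Members were found on all 10 chromosomes of the RefSeq assembly, with 11 on chromosome 1 and 2 on chromosome 10 among the 73 that could be placed, against 16.1% and 6.39% of the placed genes of the table.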

How the data were processed

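The deposited table holds raw read counts per gene model in 47 libraries, which the authors obtained by trimming single-end reads, aligning them with TopHat2 2.0.3 to the B73 RefGen_v3 genome and counting reads per gene, and from which they had removed lowly expressed genes. All columns were used. Counts were scaled with TMM in edgeR 4.0.16 (R 4.3.3), and levels are log2(CPM + 1). Tests were quasi-likelihood F tests of edgeR on the counts, with Benjamini-Hochberg adjustment over all 17905 genes and a threshold of 0.05. The steps averaged over lines were fitted with heat level as a factor, and differences between lines with 1 mean per combination of line and heat level (24 means). Pools of lines were further compared over the line means with exact two-sided permutation tests. DESeq2 1.42.0, other scalings and limits, a replicate block and fits without single libraries, lines or the 3 libraries that resembled another line were the alternatives. Fits were tested on simulated counts. Figures were drawn with matplotlib 3.10.9 (Python 3.11.15).

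Genes were named by a rule: the 12 members with the largest first step, the 5 with the highest mean, the 3 largest differences per direction and contrast of line groups, the 4 smallest adjusted p for differences between lines, and genes next to the limits. The other members were named for their annotation or pattern after their values had been seen. The members, lists and tests were all chosen with earlier results of these data known. Symbols and chromosomes come from RefSeq, whose build differs from that of the counts, so that no coordinates are given.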

Additional observations from a re-analysis of the deposited data

Results flagged for a closer look

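The second step differed between the 8 lines for 13 members in edgeR (2.79% of all genes). The 8 of them that the naming rule covers were, with their adjusted p, GRMZM2G143457 (0.000871), GRMZM2G468111 (0.00188), GRMZM2G081583 (0.00378), GRMZM2G027385 (0.00384, sharing reads with the one before), PPR10 (0.0290), GRMZM5G840002 (0.0345), GRMZM2G064096 (0.0353) and GRMZM2G113340 (0.0416). In GRMZM2G468111 the second step was -3.74 in P040 (-3.66 without the library that resembled S070) and 3.99 in L023.

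For RH3A the first step differed between Flint and Dent lines (adjusted p = 0.0443 in edgeR), and so did its second step (adjusted p = 0.0171), both with the same libraries at 32°C. The second step further differed between these pools for GRMZM2G389233 (adjusted p = 0.0171), GRMZM2G468111 (adjusted p = 0.0379) and GRMZM2G466780 (adjusted p = 0.0467). Without the only library of L017 at 32°C no member passed this last test.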

How the results depend on the processing

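The choice of members depended on the settings. Of the 100 members, 61 were chosen again with a pseudocount of 4, 61 with a limit of 0.5 on the second step, 60 with a minimum of 5 CPM, 59 without the genes above 1% of counts and 0 with library totals as the only scaling. Leaving out replicate 1 or 2 or a line left 52 to 85 of them. The balance of members higher and lower in Flint lines at 32°C turned with the settings, with 8 higher and 12 lower as reported, 13 and 10 with a replicate block, 16 and 14 without the 3 libraries that resembled another line, and a median above 0 in 9 of 61 alternatives. Among the genes named by the rule for a difference between groups of lines, over heat levels or in the first step, none changed the direction of that difference. Steps within single lines could change direction, as the first step of GRMZM2G007928 in S070 did (-0.18, and 0.75 without the library that resembled P040). The count of members called between 32°C and 38°C was 1 among genes of at least 1 CPM, 1 with line as a covariate, 1 in DESeq2 and 0 to 3 without single libraries or lines. For differences between lines in the first step it was 1 without the 3 libraries that resembled another line, 9 in DESeq2 and 0 to 2 in the fits without single libraries or lines. For the second step it was 38, 25 and 8 to 36 in the same order. For Flint against Dent lines it was 3, 2 and 0 to 3 in the first step and 36, 19 and 0 to 34 in the second step.

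Without single libraries or lines, the other counts were 97 to 99 for 25°C to 32°C, 40 to 56 for Flint against Dent lines, 11 to 18 for susceptible against tolerant lines, 0 to 0 for the first step of the latter, and 15 to 35, 9 to 26 and 44 to 60 for Flint against Dent lines at 25°C, 32°C and 38°C. The causes of these differences were not tested. With a replicate block, 2 members were called between 32°C and 38°C, 1 and 29 for differences between lines in the first and second step, and 24 for the second step of Flint against Dent lines. The replicate numbers were not taken as pairs, since no label ties a number to a block and not every pair of libraries with the same number correlated above 0.1 (14 of 22 pairs of one line and 61 of 77 of one heat level did). Depth limits members of few reads, as 20 members had at least 1 library at 0 counts at 25°C.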
